A study of Mus musculus with 18 samples.

Results

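This account covers 10 genes of endocytosis, secretion and the lysosome that were selected on their higher log2 signals in differentiating clones of Dnmt3ab-deficient induced pluripotent stem cells (iPSC). They are Cubn, Amn, Lrp2, Dab2, Srgn, Clu, Ctsh, Hs3st1, Hkdc1 and Slco2a1, 10 of 24967 genes tested. All 10 had a probe (15 probes in total), Srgn under its older name Prg1 with a matching accession, and each was read by the brightest of its probes. Levels are log2 signals of that probe, so a level can be compared between samples but not between genes.

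The series compared iPSC deficient in Dnmt3a and Dnmt3b, the enzymes that methylate unmethylated CG pairs of DNA, with control iPSC on 18 mouse 2-colour arrays. Deficient iPSC were 3 clones named 8, A6 and B2, each read on 1 array beside mouse embryonic fibroblasts (MEF) and on 1 array beside the mouse embryonic stem cell (ESC) line V6.5. Control iPSC were 4 lines, numbered 3 to 6, each read on 3 arrays whose partner channel held clone 8, A6 or B2 when that clone showed signs of differentiation. Those preparations are called the differentiating clones here, and they carry the same deficiency. All iPSC had been grown on irradiated fibroblast feeders and were moved to gelatin without fresh feeders before RNA was taken. No age, parental strain or passage number was used here. The labels do not say how far differentiation had gone or whether lines came from separate animals, so p-values measure the spread between these lines. For comparisons with V6.5 ESC and MEF they measure the spread left in a fit of all 18 arrays, many of which reuse a line. The RNA is bulk RNA: more cells of a type and more RNA per cell cannot be told apart.

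Cubilin (Cubn), amnionless (Amn) and megalin (Lrp2) are receptors of absorptive epithelia such as the visceral endoderm of the early embryo and the kidney proximal tubule. Amnionless brings cubilin to the cell surface, megalin is a very large receptor that takes up many proteins and vitamin carriers, and the adaptor Dab2 links such receptors to clathrin. Cargo is then degraded by proteases of the lysosome, among them cathepsin H (Ctsh).

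RefSeq promoter windows of 250 bases before a start site were matched for 8 of the 10 genes (10 windows, build GRCm38.p6); Ctsh and Clu were not matched. Because these enzymes act on CG pairs, the CG pairs of each window were counted. They numbered 2 in Cubn, 11 in Amn, 18 in Lrp2, 2 and 17 in the windows of Dab2, 3 and 5 in those of Srgn, 19 in Hs3st1, 6 in Hkdc1 and 12 in Slco2a1. Over 32851 promoters of the same length the median was 6, and 92.1% held at least 1. The members thus spanned poor and rich windows, and no methylation was measured. The windows below show a poor one, the pair of genes that lie close together on chromosome 10, and the richest one. Each runs 5′ to 3′ on the strand of its gene with CG pairs in capitals.
Cubn (chr2:13491877-13492126, minus strand): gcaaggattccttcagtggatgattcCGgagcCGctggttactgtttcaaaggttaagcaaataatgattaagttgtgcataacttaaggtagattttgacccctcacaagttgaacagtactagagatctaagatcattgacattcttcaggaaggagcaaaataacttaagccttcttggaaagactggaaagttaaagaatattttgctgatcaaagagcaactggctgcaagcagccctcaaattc
Hkdc1 (chr10:62422458-62422707, minus strand): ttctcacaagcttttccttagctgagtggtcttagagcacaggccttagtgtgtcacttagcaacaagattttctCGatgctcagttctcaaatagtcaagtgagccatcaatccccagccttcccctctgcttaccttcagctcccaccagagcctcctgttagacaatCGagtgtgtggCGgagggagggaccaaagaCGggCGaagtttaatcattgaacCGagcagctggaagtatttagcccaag
Srgn, second window (chr10:62527446-62527695, minus strand): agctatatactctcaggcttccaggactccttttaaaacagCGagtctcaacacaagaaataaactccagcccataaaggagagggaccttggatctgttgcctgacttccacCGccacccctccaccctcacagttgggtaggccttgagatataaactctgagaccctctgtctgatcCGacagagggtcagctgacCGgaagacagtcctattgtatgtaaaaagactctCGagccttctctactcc
Hs3st1 (chr5:39644632-39644881, minus strand): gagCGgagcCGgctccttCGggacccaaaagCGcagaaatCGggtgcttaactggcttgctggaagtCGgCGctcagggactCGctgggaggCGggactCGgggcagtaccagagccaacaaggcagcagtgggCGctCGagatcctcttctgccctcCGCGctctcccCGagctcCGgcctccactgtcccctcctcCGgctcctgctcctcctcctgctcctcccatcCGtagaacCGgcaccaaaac
The letters GATAA, the core of sites bound by GATA factors, were searched on both strands and stood in 1 of 10 windows, a Dab2 window, against 22.6% of all promoters. TGTTTAC, a forkhead motif, stood in 0 of 10, against 3.17% of all promoters. A match is only a description of these letters, and a missing match says nothing about the factors.

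A single array stood apart and touches every comparison with control lines. On the array labelled as control line 5 beside differentiating clone 8, 0 of the 10 genes had a positive log2 ratio of differentiating over control, with a median of -0.39, while on the other 11 arrays the median ran from 1.73 to 4.10. The Dnmt3a ratio was 0.05 there and -2.20 to -1.54 on the other 11 arrays. Ratios past 1 log2 unit numbered 108 genes there and 636 to 1173 elsewhere, and the array's ratios correlated across genes at 0.02 with the mean of the others, against 0.46 to 0.88. The channel labelled control 5 on that array read Srgn at 15.23, against 7.43 and 7.41 on the line's other 2 arrays, and Cubn at 13.17, against 7.47 and 7.38. Over 24756 genes that channel correlated at 0.951 with the line's other channels and at 0.958 with differentiating clone 8 on its other arrays. The clone 8 channel of that array deviated as well, and read each of the 10 genes lower than the clone's other arrays did. Cubn was at 12.45 there, against 14.5 to 15.1, and Hkdc1 at 11.55, against 14.21 to 14.57. The label of the control 5 channel is in doubt, and whether a label or the RNA is at fault was not tested. That array's own median net signals, 125.4 and 84.4, were the lowest of the 12 in each dye, against 210.7 to 293.7 in Cy5 and 106.0 to 160.2 in Cy3. The levels below therefore leave that array out, which leaves control line 5 on 2 arrays and differentiating clone 8 on 3. The 10 genes' differences from control lines are given without it and with all 12 arrays. Values of other genes come from all arrays unless said otherwise, and each gene named below as rising or falling against control lines with all arrays was also called without that array.

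Deficiency was checked on the RNA of the targeted genes. In the fit of all arrays Dnmt3a was at 9.04, 9.43 and 9.57 in deficient clones 8, A6 and B2 and at 11.37, 11.05, 10.46 and 10.85 in control lines 3, 4, 5 and 6, a difference of -1.58 ± 0.21 (SE; limma, adjusted p = 0.000423), or -1.67 ± 0.14 without the array (adjusted p = 3.52e-05). Dnmt3b was at 12.26 to 13.52 in deficient clones and 12.41 to 13.97 in control lines and did not pass (-0.37, adjusted p = 0.458). The deleted part is not given in the sources used here, so a probe outside it checks nothing. Deficient iPSC with both reference RNAs were scanned on 1 day (6 arrays, 2 slides) and control lines with differentiating clones on another (12 arrays, 3 slides), so the day and the group cannot be told apart where deficient iPSC are compared with control lines or with the differentiating state. Median net signal per channel was 116.8 to 251.5 on the first day and 84.4 to 293.7 on the second.

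The receptor genes Cubn and Amn were far higher in differentiating clones than in control lines, and Lrp2 was not. Cubn (probe at chr2:13215519-13215578 of build mm7, the build of the files) was at 14.57, 12.51 and 11.75 in differentiating clones 8, A6 and B2. In control lines 3, 4, 5 and 6 it was at 7.87, 10.19, 7.45 and 8.93. The lowest clone lay above the highest control line, and clone 8 stood highest. The difference was 4.33 ± 1.46 (SD over 3 clones), or 20.1-fold, and 3.96 ± 0.76 with all 12 arrays. Amn (chr12:108792302-108792450) was at 13.36, 10.99 and 10.31 in clones 8, A6 and B2 and at 9.0, 9.80, 8.74 and 9.64 in control lines 3 to 6. Again the groups were apart, though clone B2 exceeded control line 4 by little. The difference was 2.26 ± 1.60, and 2.02 ± 1.12 with all arrays.

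Lrp2 differed from its partners. It was at 12.87, 11.55 and 11.25 in differentiating clones 8, A6 and B2 and at 11.54, 11.68, 11.61 and 10.74 in control lines 3 to 6 (probe at chr2:69355058-69355117). Only clone 8 stood above the control lines, and the other clones lay inside their range. The difference was 0.50 ± 0.86 (0.42 ± 0.70 with all arrays), smaller than the spread between clones. On the 11 arrays its ratio was positive on 6, from -0.44 to 2.17, with all 3 arrays of clone 8 at 1.08 or more. The other 3 Lrp2 probes gave 0.74, 0.45 and 0.13. Lrp2 was nevertheless at 9.77 in V6.5 ESC and 8.04 in MEF, below every iPSC line in both states.

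Dab2, the adaptor of these receptors, was at 12.56, 10.84 and 10.23 in differentiating clones 8, A6 and B2 and at 8.84, 9.45, 8.70 and 8.65 in control lines 3 to 6 (chr15:6266416-6266475). The groups did not overlap, with a difference of 2.30 ± 1.21 (2.10 ± 0.78 with all arrays). A second Dab2 probe gave 1.03. Dab2 was at 11.49 in MEF, inside the range of the differentiating clones.

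**Figure D1:**
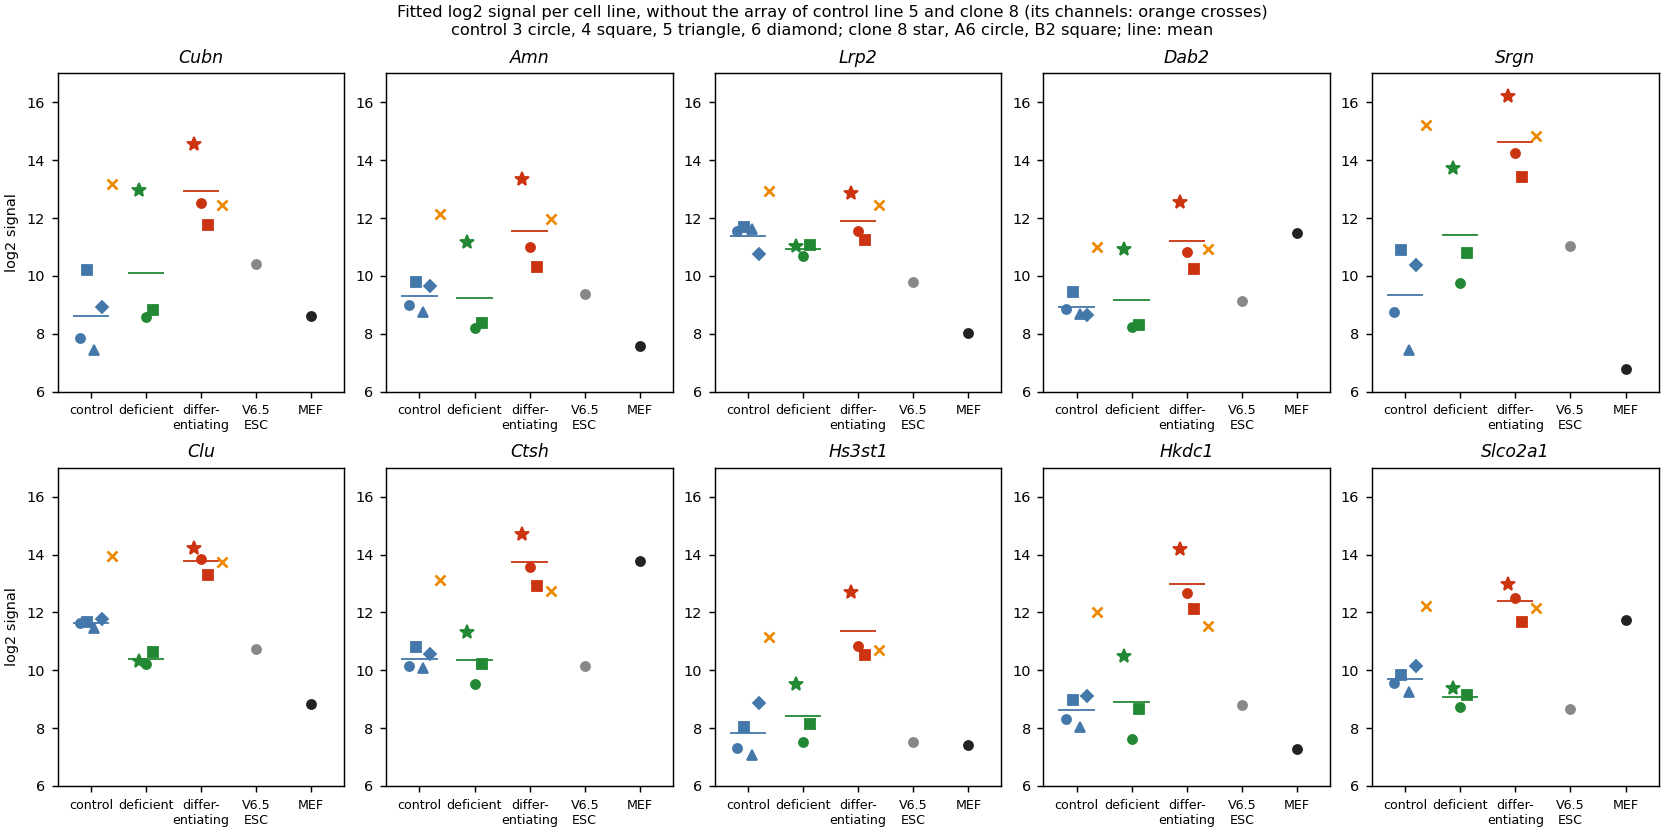
Log2 signal (vertical axis) of each gene in each cell line, by kind of RNA (horizontal axis), fitted without the array of control line 5 and clone 8. Each point is 1 line, V6.5 ESC or MEF, horizontal bars are means over lines, and orange crosses are the normalized channel values of the array left out. Differentiating clones lie above all 4 control lines for 9 of the 10 genes, Lrp2 being the exception, and clone 8 (stars) is high in Cubn, Amn, Dab2 and Srgn already in the deficient state.

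The secreted products were led by Srgn, which encodes serglycin, a proteoglycan that packs the granules of blood and secretory cells. Srgn (chr10:62013209-62013268) was at 16.21, 14.26 and 13.42 in differentiating clones 8, A6 and B2. It was at 8.74, 10.88, 7.43 and 10.37 in control lines 3 to 6, a range of more than 3 log2 units among controls. The lowest clone still exceeded the highest control line. The difference was 5.27 ± 1.43, or 38.7-fold, the largest of the 10 (4.84 ± 0.68 with all arrays). Of 15 markers of blood and mast cells measured, 0 rose and 0 fell against control lines in limma with all arrays, where 7.25% of all genes were called (1 and 2 at an unadjusted p under 0.05). With slide as a block 3 rose and 3 fell (33.7% of all genes were called). Each differentiating clone had its own slide, so this block, here and below, also removes differences between clones. Without the array 1 rose (Tal1, 0.48 ± 0.11, adjusted p = 0.0272) and 1 fell (Tyrobp, -0.16 ± 0.03, adjusted p = 0.0153), where 10.9% of all genes were called. Without the array the mean log2 level of the 15 markers was 7.95 to 8.11 in differentiating clones and 7.99 to 8.03 in control lines. Ptprc, the pan-leukocyte antigen CD45, was then at 6.49 to 6.56 and 6.58 to 6.63.

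Clu, the secreted chaperone clusterin and a ligand of megalin, was at 14.23, 13.85 and 13.31 in differentiating clones 8, A6 and B2 and at 11.63, 11.66, 11.45 and 11.77 in control lines 3 to 6 (chr14:60841778-60841837). It had the tightest values on both sides, and its 11 array ratios ran from 1.53 to 2.55. The difference was 2.17 ± 0.46 (2.02 ± 0.29 with all arrays).

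Ctsh, a cysteine protease of the lysosome, was at 14.72, 13.57 and 12.91 in differentiating clones and at 10.14, 10.80, 10.07 and 10.58 in control lines 3 to 6 (chr9:89705043-89705102). The difference was 3.34 ± 0.92 (3.09 ± 0.46 with all arrays), and the ranges lay more than 2 log2 units apart. Ctsh was at 13.78 in MEF, inside the range of the differentiating clones, and above it with all arrays (14.05 against 13.14 to 14.03).

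Hs3st1, which adds the 3-O-sulfate that heparan sulfate needs to bind antithrombin, was at 12.70, 10.84 and 10.51 in differentiating clones 8, A6 and B2. Control lines 3 to 6 were at 7.33, 8.02, 7.06 and 8.87 (chr5:38937117-38937176). The difference was 3.53 ± 1.18 (3.24 ± 0.58 with all arrays). Hkdc1, a member of the hexokinase family, was at 14.20, 12.66 and 12.10 in these clones and at 8.32, 8.96, 8.04 and 9.12 in control lines (chr10:61901912-61901971). Its difference of 4.37 ± 1.09, or 20.7-fold, was 4.05 ± 0.44 with all arrays, and the lowest clone stood about 3 log2 units above the highest control line. Slco2a1, the prostaglandin transporter, was at 13.00, 12.50 and 11.65 in clones and 9.56, 9.84, 9.25 and 10.14 in control lines (chr9:102801807-102801866). The difference was 2.69 ± 0.68 (2.50 ± 0.45 with all arrays), but a second Slco2a1 probe gave 0.59, so its size depends on the probe.

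Counted over the genes, the 3 differentiating clones lay above the 4 control lines in 9 of 10 without the array and in 9 of 10 with it, against 11.5% and 9.14% of all genes. This is how the genes were chosen, so the count supports nothing. The median difference was 3.01 over the 10 genes and 0.00 over all genes. Among control lines, line 5 was lowest in 8 genes (24.6% of all genes) and line 4 highest in 6 (16.6%), with line 6 highest in the other 4 (37.5%). With all arrays line 5 was instead the highest in 7 (32.9%).

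**Figure D2:**
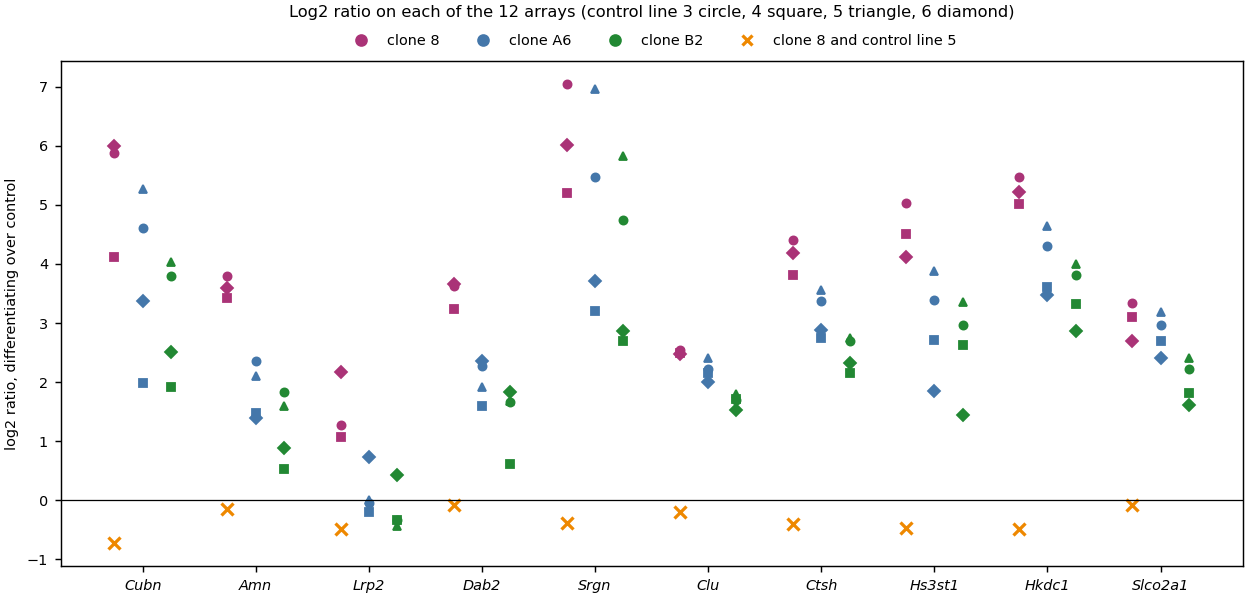
Log2 ratio of differentiating over control (vertical axis) for each gene (horizontal axis) on each of 12 arrays, coloured by clone, with the symbol giving the control line. The array of control line 5 and clone 8 (orange crosses) lies below 0 for each of the 10 genes, while the other 11 arrays are above 0 for every gene but Lrp2, and clone 8 (purple) is mostly the highest.

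Each clone was also read in both states, on different scan days. Without the array, all 3 clones were higher by more than 1 log2 unit in the differentiating state in 9 of 10 genes, against 0.513% of all genes; with it, in 8 of 10, against 0.497%. These values share the differentiating samples with the choice of the genes and are given as a description. Hkdc1 was higher by 3.71 in clone 8, 5.05 in A6 and 3.45 in B2, a mean of 4.07 ± 0.86 (SD over 3 clones). Srgn was higher by 2.46, 4.52 and 2.64 in clones 8, A6 and B2, and Cubn by 1.62, 3.93 and 2.94. For both, clone 8 had the smallest step and the highest deficient level. Its steps depended on the array left out: with all arrays they were 1.54 for Srgn, 0.71 for Cubn and 1.04 for Dab2, the last against 1.63 without it. Clu was higher by 3.92, 3.62 and 2.67, Ctsh by 3.38, 4.06 and 2.69 and Slco2a1 by 3.61, 3.78 and 2.50. Hs3st1 was higher by 2.95 ± 0.52, Amn by 2.31 ± 0.43 and Dab2 by 2.05 ± 0.50. Lrp2 was higher by 1.85, 0.85 and 0.18 and was the exception to the count. The second probes of Slco2a1 and Dab2 gave mean steps of 0.84 and 0.79, against 3.30 and 2.05. The other Lrp2 probes gave 1.51, 0.32 and 0.20, against 0.96, so the size of these steps depends on the probe. The differentiating clones all lay above the deficient clones in only 6 of 10 genes (40.1% of all genes; 7 and 39.7% with all arrays), since deficient clone 8 reached into the differentiating range for Cubn, Amn, Dab2 and Srgn.

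**Figure D3:**
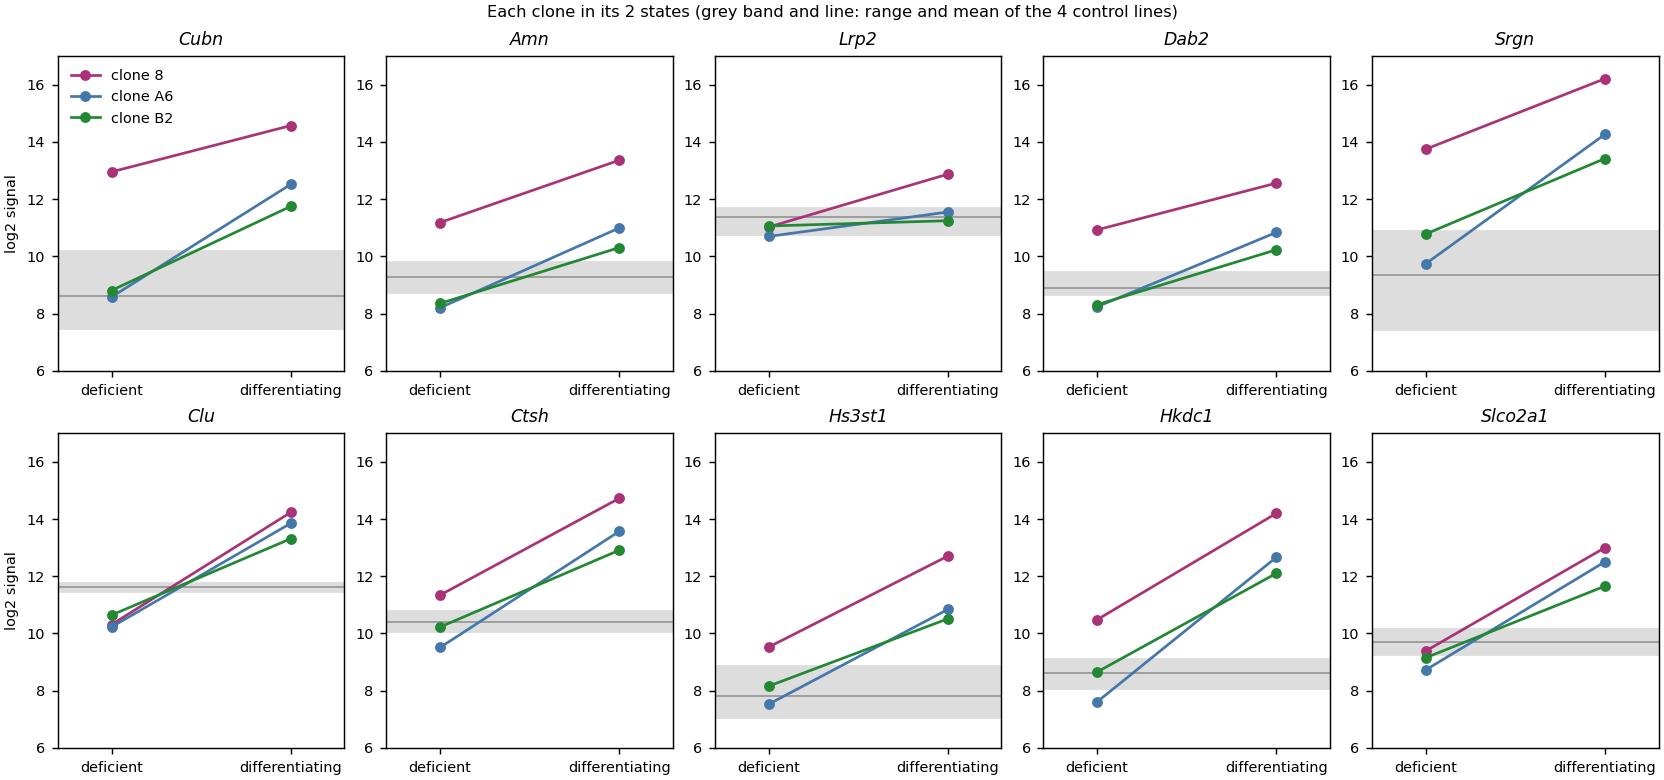
Log2 signal (vertical axis) of each gene in clones 8, A6 and B2 in the deficient and the differentiating state (horizontal axis), without the array of control line 5 and clone 8. Lines join the states of 1 clone, and the grey band and line give the range and mean of the 4 control lines. Clone 8 starts above the grey band in 7 genes, whereas Clu starts below it in all 3 clones.

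Deficient clone 8, which carries no label of differentiation, was high in most of these genes. Its Cubn level was 12.95, while clone A6 had 8.58 and clone B2 8.81. Its Srgn level was 13.75, against 9.74 and 10.78. Both arrays of the clone showed it: Cubn read 13.06 in Cy5 and 12.73 in Cy3. Relative to the mean of A6 and B2, clone 8 was higher by 4.26 for Cubn, 3.48 for Srgn, 2.90 for Amn, 2.65 for Dab2, 2.35 for Hkdc1, 1.68 for Hs3st1 and 1.47 for Ctsh. Slco2a1 (0.45), Lrp2 (0.15) and Clu (-0.12) differed little. So 7 of 10 genes were past 1 log2 unit, against 83 of 24967 genes (0.332%), and 5 of them were among the 16 genes past 2. With 1 such clone there is no test. Clone 8 was alone on its slide, so clone and slide cannot be told apart. V6.5 ESC read Cubn at 10.37 on that slide and at 10.71 on the other slide of that day. Without the array deficient clone 8 exceeded every control line in 7 genes (27.1% of all genes), by more than 1 log2 unit in 5 (0.497%), namely Srgn, Cubn, Dab2, Amn and Hkdc1. With all arrays the counts were 7 (25.7%) and 4 (0.477%). In the differentiating state clone 8 was past 1 log2 unit above the mean of A6 and B2 in 8 genes without the array (0.709% of all genes) and in 4 with it (0.312%). Each differentiating clone had a slide of its own, so clone and slide cannot be told apart in that state either.

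**Figure D4:**
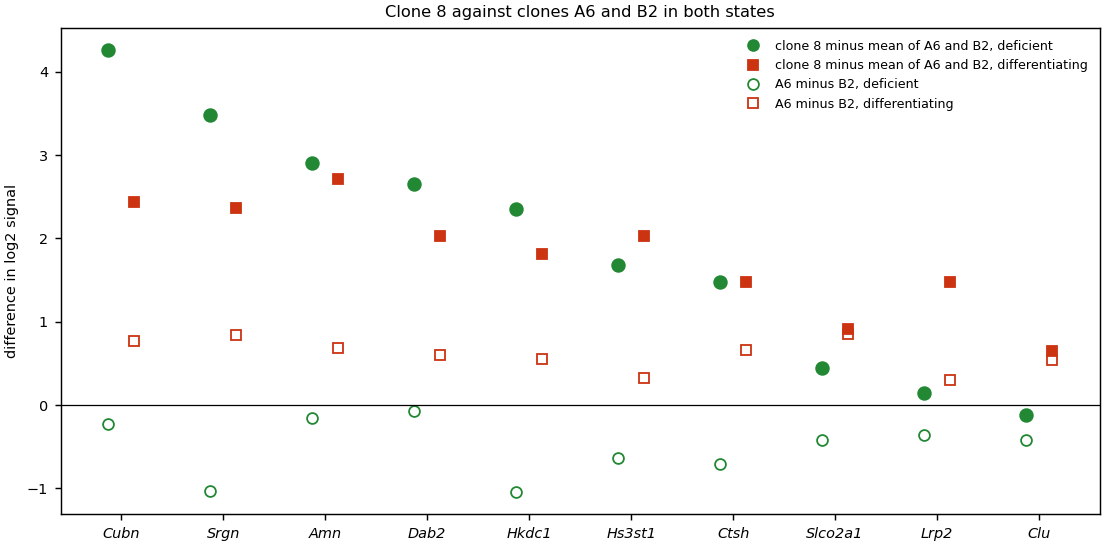
Difference in log2 signal (vertical axis) between clone 8 and the mean of clones A6 and B2 for each gene (horizontal axis), in the deficient state (filled circles, all arrays) and the differentiating state (filled squares, without the array of control line 5 and clone 8); open symbols give A6 minus B2. Clone 8 exceeds the others by 1.47 to 4.26 in 7 genes of the deficient state, and A6 minus B2 is negative in the deficient and positive in the differentiating state for each of the 10.

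Deficient iPSC without signs of differentiation were tested against control lines, with the control lines and scan days as above. In limma 2 of 10 genes were called at an adjusted p under 0.05, against 48.7% of all genes (50.1% without the array); both were lower, as were 33% of all genes (33.9% without the array). Clu was lower, at 10.31, 10.23 and 10.64 in clones 8, A6 and B2, by -1.39 ± 0.21 (SE; adjusted p = 0.000748), and by -1.24 ± 0.20 without the array (adjusted p = 0.000888). Its 3 clones all lay below the 4 control lines, as in 34.1% of all genes (35.2% without the array), and it was the only one of the 10 to do so with all arrays. Slco2a1 was lower by -0.79 ± 0.28 (adjusted p = 0.04), a call that ended without the array (-0.61 ± 0.32, adjusted p = 0.147) and without clone A6 (adjusted p = 0.152), clone B2 (0.0631), or control line 4 (0.063), 5 (0.094) or 6 (0.0677). The other 8 were not called; Srgn was at 1.58 ± 0.92 and Cubn at 1.17 ± 1.05. Without clone 8, Amn was called lower (-1.22 ± 0.36, adjusted p = 0.0289).

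V6.5 ESC and MEF place these levels beside a pluripotent and a fibroblast RNA, each a single RNA in 1 dye whose own spread was not measured. Against V6.5 ESC, limma called 0 of 10 genes in deficient iPSC, against 14.2% of all genes (5.78% higher, 8.47% lower), and 1 of 10, Lrp2, at an unadjusted p under 0.05. Lrp2 was higher by 1.14, 1.25 and 0.83 on the arrays of clones 8, B2 and A6 (fitted 1.27 ± 0.46, adjusted p = 0.0755). Cubn split by clone: the array ratios were 2.37 for clone 8, -1.80 for B2 and -2.18 for A6. Srgn split likewise, at 2.74, -0.46 and -1.49. V6.5 ESC itself was at 10.41 for Cubn and 11.02 for Srgn without the array, above all 4 control lines, but inside their range with all arrays, at 9.997 and 10.52.

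Against MEF, 6 of 10 genes were called (58.2% of all genes), 3 higher (28.4%) and 3 lower (29.8%). Srgn was higher in deficient iPSC by 4.26 ± 1.34 (SE; limma, adjusted p = 0.0114), and by 4.55 ± 1.102 without the array (adjusted p = 0.00203). The 3 MEF channels read 6.99, 6.45 and 6.68, and the probe was well above background on 1 of them, so its MEF level is close to background. The Srgn call ended without clone 8 (3.24 ± 1.46, adjusted p = 0.0765). Lrp2 was higher by 2.78 ± 0.46 (adjusted p = 5.14e-05) and Clu by 1.42 ± 0.41 (adjusted p = 0.00666). Ctsh was lower by -3.57 ± 0.75 (adjusted p = 0.000526), Slco2a1 by -2.69 ± 0.52 (adjusted p = 0.00028) and Dab2 by -2.43 ± 0.80 (adjusted p = 0.0151). The Dab2 call ended without clone A6 (adjusted p = 0.0952), without clone B2 (0.0924) and with the mean of its probes (0.0513). Ctsh, Slco2a1 and Dab2 were thus high in fibroblasts as well as in differentiating clones. Of 25 fibroblast and feeder markers measured, 14 fell and 0 rose between differentiating clones and control lines with all arrays, where 7.25% of all genes were called (22 and 1 at an unadjusted p under 0.05), with Col3a1, a fibrillar collagen, at -1.59 ± 0.25 and Tagln, a contractile protein, at -1.36 ± 0.22 (adjusted p = 0.0111 and 0.0121). Without the array 17 fell and 1, Twist1, rose (5.24% of all genes fell and 5.63% rose). Between the states of the clones, where 50.7% of all genes were called, 7 of the 25 rose and 5 fell with all arrays, and 7 and 9 without the array. There S100a4, a calcium-binding protein, rose by 1.58 ± 0.12 and Dcn, the proteoglycan decorin, by 1.28 ± 0.29 (adjusted p = 0.00412 and 0.0222), while Loxl1, a collagen cross-linking enzyme, fell by 0.93 ± 0.09 and fibronectin, Fn1, by 0.90 ± 0.08 (adjusted p = 0.00438 and 0.00429). The part of fibroblasts in the levels of Ctsh, Slco2a1 and Dab2 was not tested. Without the array the mean log2 level of the 25 markers was 10.65 to 10.97 in differentiating clones, 11.21 to 11.90 in control lines and 15.15 in MEF.

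Extraembryonic endoderm is a tissue in which cubilin and megalin are typical. Of 31 of its markers measured, 10 rose and 0 fell in differentiating clones against control lines with all arrays (15 and 2 at an unadjusted p under 0.05), where 7.25% of all genes were called (3.63% higher, 3.62% lower). Counts were 11 and 0 without the array (10.9% of all genes, 5.63% higher and 5.24% lower) and 20 and 5 in a fit over arrays with slide as a block (33.7%). Foxa2, a forkhead factor of endoderm, rose by 2.77 ± 0.56 (SE; limma, adjusted p = 0.023) and Gata6, a GATA factor of primitive endoderm, by 2.73 ± 0.56 (adjusted p = 0.0242). Between the states of the clones 24 of the 31 rose and 2 fell without the array, where 33.4% of all genes rose and 18.5% fell. The list's mean log2 level without the array was 10.05 to 11.03 in differentiating clones and 9.50 to 9.75 in control lines. In deficient clones it was 9.65 in clone 8, the highest, and 9.20 and 9.25 in A6 and B2. In deficient clone 8, 8 of the 31 were past 1 log2 unit above the mean of A6 and B2, against 0.332% of all genes. Among them were Gata6 at 2.20, Col4a1, a basement membrane collagen, at 1.91 and Lama1, a laminin, at 1.86. The median over the 31 was 0.17. Other markers were lower in clone 8, such as the keratins Krt18 (-0.84) and Krt19 (-0.64) and the cadherin Cdh2 (-0.61). Afp, Apoa1 and Apob, secreted products of visceral endoderm, were at -0.66, 0.01 and -0.11 in the same comparison. All of these were dim in every RNA, MEF included. Without the array Afp was at 6.27 to 7.29, Apoa1 at 6.62 to 6.82 and Apob at 6.78 to 7.18, so little can be read from their differences. The part of such cells in the levels of the 10 genes was not tested.

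Of 20 core pluripotency genes 1 fell in differentiating clones against control lines, Lefty1, a Nodal inhibitor (-1.13 ± 0.22, adjusted p = 0.0217), and 0 rose (3 and 0 at an unadjusted p under 0.05). Without the array Sall4, a zinc-finger factor, fell as well (-0.41 ± 0.10, adjusted p = 0.0266). With slide as a block 4 of 19 fell and 0 rose, and 7 and 0 without the array. Of 13 genes of definitive endoderm and gut only Hhex was called (0.75 ± 0.14, adjusted p = 0.0186), and of 12 endothelial genes only Egfl7 (0.81 ± 0.09, adjusted p = 0.00523). Of 12 trophoblast genes Cdh3, a cadherin, rose (0.71 ± 0.15, adjusted p = 0.0275) and Eomes, a T-box factor, fell (-0.52 ± 0.08, adjusted p = 0.00923). With slide as a block 2 gut genes rose and 1 fell, 4 of 11 endothelial genes rose and 1 fell, and 3 trophoblast genes rose and 3 fell. Against control lines 3.63% of all genes rose and 3.62% fell (5.63% and 5.24% without the array), and 33.7% were called with the block. Between the states of the clones, 13 of the 20 pluripotency genes fell and 0 rose without the array (18.5% of all genes fell, 33.4% rose). There Nanog was at -1.69 ± 0.23 and Tbx3, a T-box factor, at -1.20 ± 0.26 (limma, adjusted p = 0.00651 and 0.0201). The states were read on different scan days.

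Of 32 genes of the endocytic machinery, from clathrin and its adaptors to endosomal regulators, 4 rose and 0 fell in differentiating clones against control lines (9 and 2 at an unadjusted p under 0.05). Over all genes 3.63% rose, 3.62% fell and, with slide as a block, 33.7% were called. Without the array 5.63% rose and 5.24% fell. These shares hold for the lists below as well. With slide as a block 10 of 31 endocytic genes rose and 5 fell. Without the array 5 rose and 1 fell, Snx17, an endosomal sorting nexin (-0.33 ± 0.09, adjusted p = 0.0413). Dab1, a relative of Dab2, rose by 1.09 ± 0.17 (SE; limma, adjusted p = 0.0109). The list's median was 0.03. Between the states of the clones 13 rose and 8 fell (50.7% of all genes were called, 32.6% higher and 18.1% lower), with Myo6, the motor of endocytic vesicles, at 1.07 ± 0.06 and Cltb, a clathrin light chain, at -0.81 ± 0.05 (adjusted p = 0.00412 for both).

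Of 15 measured ligands of cubilin and megalin, 2 rose and 0 fell against control lines (3 and 0 at an unadjusted p under 0.05; 5 and 0 with slide as a block). Rbp4, the retinol carrier, rose by 1.35 ± 0.27 (adjusted p = 0.0225) and Apom, an apolipoprotein, by 1.28 ± 0.27 (adjusted p = 0.0271). Among 16 other cathepsins and their relatives, 2 rose and 1 fell (8 and 4 with slide as a block). Lgmn, the lysosomal protease legumain, rose by 2.04 ± 0.30 (adjusted p = 0.0093) and Cstb, a cysteine protease inhibitor, by 0.69 ± 0.12 (adjusted p = 0.0161), while Ctsk fell by 0.80 ± 0.16 (adjusted p = 0.0228). Without the array 3 rose and 3 fell.

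Among the hexokinases Hk1 rose by 0.41 ± 0.11 (SE; limma, adjusted p = 0.0483), and Hk2 and Hk3 were each at -0.01 and were not called. Of 21 genes of heparan sulfate synthesis, 1 rose and 1 fell against control lines, Hs3st3b1, another 3-O-sulfotransferase (0.38 ± 0.09, adjusted p = 0.0321), and B3galt6 of the linker region (-0.41 ± 0.08, adjusted p = 0.0179). Without the array 1 rose and 4 fell, and with slide as a block 4 and 6. Of 17 organic anion transporters and prostaglandin genes, 2 rose and 3 fell (3 and 5 with the block). Slco4a1 rose by 1.20 ± 0.28 (adjusted p = 0.0379) and Slco2b1 by 0.53 ± 0.12 (adjusted p = 0.0311), while the prostaglandin synthases Ptgs1 and Ptgs2 fell by 0.83 ± 0.15 and 0.80 ± 0.18 (adjusted p = 0.0167 and 0.0356).

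Srgn and Hkdc1 lie 111 kb apart on chromosome 10, and 12 genes around them were measured. Supv3l1, an RNA helicase that lies between them, was at 0.09 ± 0.05 (SE; limma, adjusted p = 0.374) in differentiating clones against control lines. Vps26a, a retromer subunit also between them, rose by 0.44 ± 0.09 (adjusted p = 0.023). Tspan15 (0.62 ± 0.14, adjusted p = 0.0312), Hk1 and Kifbp (0.21 ± 0.05, adjusted p = 0.0382) rose as well, and the other 8 genes, counting Supv3l1, were not called. In all 4 rose and 0 fell (5 and 1 at an unadjusted p under 0.05; 7 and 0 with slide as a block). The differences of the 12 genes ran from -0.19 to 0.62, against more than 4 for both members. The neighbours' calls were not firm: 0 remained without clone A6, without clone B2, and without control line 3 or 4. Without normalization between arrays 2 neighbours were called. Over all genes 0 were called without clone A6 and 2 without clone B2, so the losses without these clones are not particular to the neighbours.

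**Figure D5:**
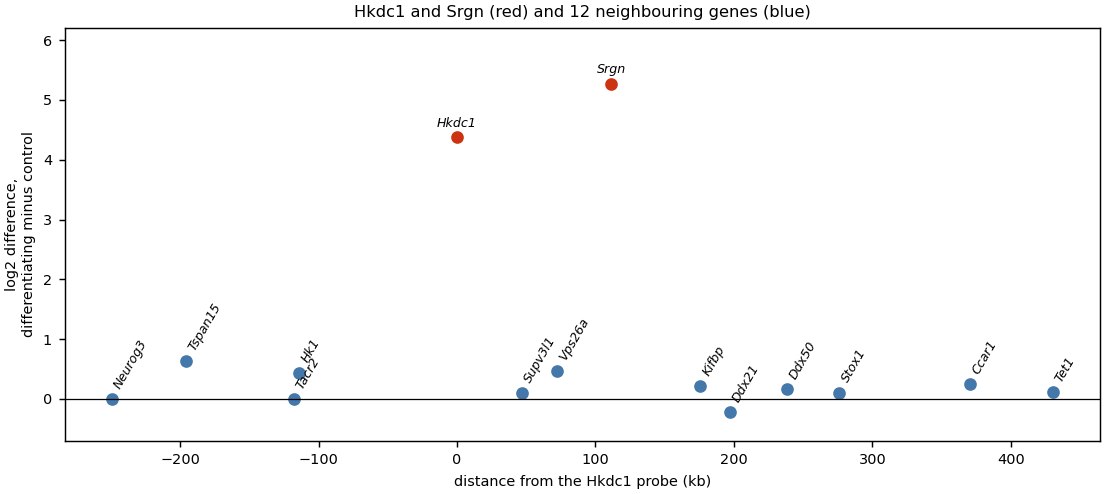
Log2 difference of differentiating clones minus control lines (vertical axis), without the array of control line 5 and clone 8, against distance from the Hkdc1 probe in kb (horizontal axis) for Hkdc1 and Srgn (red) and 12 neighbours (blue). Hkdc1 at 4.37 and Srgn at 5.27 stand above the neighbours, which lie between -0.22 and 0.63.

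The 10 genes did not all share a profile. Over the 12 line-and-state values with all arrays, Hkdc1 and Hs3st1 followed the mean of the other 9 most closely (Pearson r = 0.98 and 0.97), while Lrp2 (0.48), Dab2 (0.68) and Ctsh (0.72) followed it least. The genes outside the group whose profiles were most like its mean were S100g, a calcium-binding protein (r = 0.98), Lpar3, a lysophosphatidic acid receptor (0.97), Pla2g12b, a secreted phospholipase relative (0.97), the transcript AK139506 (0.97), Foxa2 (0.97) and Bmp6, a growth factor (0.97). Without the array 5 of these 6 remained among the top 6, and Foxa2 ranked 8. These values describe 12 points that share arrays and clones. Foxa2 levels in deficient clones 8, A6 and B2 were 9.59, 7.29 and 8.20, and it was at 12.69, 11.30 and 10.78 in the same clones when differentiating, without the array.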

How the data were processed

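RNA was hybridised to 18 Agilent 2-colour arrays (36 channels). Per the file headers, the deposited scanner files hold mean spot intensity and local background in each dye, not yet normalized, and processed signal intensities that the software background-subtracted and dye-normalized. The authors' deposited values are log2 ratios that ran as deficient over the other channel on 18 of 18 arrays (absolute r with the ratios computed here 0.975 to 0.999, absolute slope 1.00 to 1.03, column medians -0.01 to 0.01); its normalization was not stated. The submitters' processing notes name limma.

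Spots whose local background exceeded 2 times the array median were left out (at most 32 on an array, on 10 arrays), because such spots distorted the background fit; this was decided after seeing the data. Background was corrected by normexp with an offset of 50, followed by loess within each array and Aquantile across arrays, in limma 3.58.1 (R 4.3.3, data.table version 1.17.8). Aquantile removes any shift shared by most genes. Outlier spots (at most 0.691% of an array) were left out, and 0 spots were saturated. Of 41174 non-control probes, 36965 were kept: those that, for 1 or more kinds of RNA, passed the scanner's background test in a share of 0.5 or more of its channels. A gene was its brightest probe. A separate-channel fit with a dye term (intra-spot correlation 0.586) gave 1 log2 value for each of 12 lines and states.

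Deficient clones (3), differentiating clones (3) and control lines (4) entered 1 limma fit, and states were compared within the 3 clones. Contrasts of deficient iPSC with either reference RNA came from a limma fit of all 18 arrays, each contrast resting on 3 arrays. The dye term and the spread in that fit came from all 18 arrays. Leaving out the array of control line 5 and clone 8 thus took the SE of Clu against MEF from 0.41 to 0.21. Two-sided p-values were adjusted by Benjamini-Hochberg across every gene tested (24967, and 24969 for the reference RNAs), with a call at an adjusted p under 0.05. The fits were tried on simulated data with independent lines and no slide or scan-day effect. That trial therefore says nothing about the p-values where such effects are present. Control lines and differentiating clones of the same replicate number shared a slide, and their slide means deviated together (r = 0.740, 0.760 and 0.645; 0.430, 0.620 and 0.481 without the array of control line 5 and clone 8), so slide was also fitted as a block over arrays. Each differentiating clone had a slide of its own, so that block also removed differences between clones. P-values of the blocked fit measure the spread between arrays of a slide, not between clones. The number of lines and arrays limits the precision.

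The members, gene lists and tests were chosen with earlier results of these data known. Differences of the members that involve differentiating clones are descriptions with no test. Named genes were the members, up to 2 called genes with the largest rise and 2 with the largest fall of each list in each comparison (a selection is printed), every hexokinase and neighbour, and the 6 genes most like the members' mean profile. Some genes under this rule are not reported here. Levels of other marker genes, Ptprc, Col4a1, Lama1, Krt18, Krt19, Cdh2, Afp, Apoa1 and Apob, were picked as examples with their values known. Alternatives were no normalization between arrays, processed signals, no filter, the mean of all probes, no dye term, slide as a block, the deposited log ratios, and each clone or line left out. Added later were all spots in the background fit, and leaving out the array that stood apart.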

Additional observations from a re-analysis of the deposited data

Results flagged for a closer look

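Within each clone the 4 array ratios of differentiating over control were checked for a value far from the other 3, in 30 groups of 4, where chance marks about 1 in 20. For clone 8, 6 of 10 genes had their ratio over control line 5 far below the other 3 arrays. These ratios were -0.144 for Amn, -0.0716 for Dab2, -0.203 for Clu, -0.393 for Ctsh, -0.473 for Hs3st1 and -0.477 for Hkdc1, while the other 3 arrays of clone 8 gave 2.47 to 5.47 for the same genes. All 6 come from the array described above as standing apart. For clone A6, 0 of 10 genes had such a value.

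For clone B2, 2 genes had one. Lrp2 was at 0.424 over control line 6, while the other 3 arrays were below 0. Dab2 was at 0.621 over control line 4, below the other 3 arrays of that clone. Control line 4 had the highest Dab2 level of the control lines, at 9.45, and control line 6 the lowest Lrp2 level, at 10.74.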

How the results depend on the processing

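Over all settings tried, the members' differences of differentiating clones from control lines were positive in 170 of 170 recomputed values. Those between the states were positive in 140 of 140, and no value reversed. The members were chosen on higher signals in differentiating clones, and the settings reuse the same samples, so these counts support nothing. For Lrp2 the differences from control lines ran from 0.02 to 0.69. With the mean of all probes Slco2a1 moved to 1.52 against control lines and to 2.04 between the states. The number of members called between deficient and control iPSC, 2, was 1 without normalization between arrays and 1 without the array of control line 5 and clone 8, and 1 to 3 when each clone or line was left out. With each clone or line left out, all genes called between differentiating clones and control lines, 1811, were 0 to 3060 (0 without clone A6, 2 without clone B2, 522 and 532 without control lines 3 and 4, 3060 without line 6). Genes called between the states, 12657, were 0 to 14505 (0 without clone A6, 6991 without B2, 14505 without clone 8), and genes called against V6.5 ESC, 3558, were 1547 to 3558 (1547 without A6, 1631 without B2). That last count was 1349 with all spots in the background fit. With slide as a replicate block over arrays, differentiating clones against control lines gave 8391 called genes (9599 without the array of control line 5 and clone 8), and 7733 over arrays with no block; arrays that reuse a line count there as replicates. The block also removed differences between the differentiating clones, each of which had its own slide. No slide is shared between deficient and control iPSC, so no blocked fit could be made for that comparison. For 39 other named genes 485 of 624 recomputed values kept their call, 109 lost it and 0 reversed. Dim signal limits Srgn in MEF.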
